A study of Homo sapiens with 6 samples.

Results

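The ABC drug efflux transporters are a group of ATP-binding cassette (ABC) pumps of the plasma membrane, here ABCB1, ABCC1, ABCC2, ABCC3, ABCC4, ABCC5, ABCC10 and ABCG2. They were taken from the deposited counts matrix by gene symbol, which found all 8 among 57773 genes, and 7 of them were among the 16290 genes with enough counts to be tested. SW872 is an established human liposarcoma cell line, grown in RPMI-1640 with 10% FBS. RNA of 3 biological replicates treated with 18 μM Apatinib, an oral inhibitor of VEGFR2, for 24 h was compared with RNA of 3 replicates whose own treatment label is none, although a protocol text shared by all samples describes the Apatinib treatment. No vehicle is named for the control, so a solvent given with Apatinib and Apatinib itself cannot be told apart. The results come from 1 cell line at 1 dose and 1 time, and the labels do not say whether the replicates were separate cultures in each group.

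ABC transporters use the energy of ATP to move small molecules across membranes, and those of the multidrug group push drugs and drug conjugates out of the cell. High activity of these pumps is a known route to resistance against chemotherapy, and anthracyclines such as Epirubicin are classical cargo of ABCB1 and ABCC1. Apatinib is known to block transport by ABCB1 and ABCG2. An RNA level says nothing of transport activity, which was not measured here.

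Total counts were between 17043314 and 22067558 in the 6 libraries. Values in CPM are counts scaled to a common library size, after adjustment of the libraries by edgeR's TMM method, and a log2 fold change above 0 means a higher level with Apatinib. A gene was called higher or lower (a DEG) at a false discovery rate (FDR, the Benjamini-Hochberg adjusted p of edgeR's quasi-likelihood test over the genes tested) under 0.05 and a log2 fold change over 0.5 in size. The chi-square per gene, which is larger for less alike libraries, was 2.27 between control replicates 1 and 2, the lowest of all pairs. The other pairs within a group had 18.2 to 44.5. Pairs across the groups had 26.5 (Apatinib replicate 3 and control replicate 3) to 78.4, so the 2 ranges overlapped. The mitochondrial share of counts was 5.16% to 5.69% with Apatinib and 4.47% to 5.11% in the control, and its part in the results was not tested. The mesenchymal markers VIM and CD44 were abundant, with mean FPKM of 1035 and 320, whereas the adipocyte markers FABP4 and ADIPOQ had 0 counts in every library. PPARG, a marker on the same list, had a mean of 21.7 FPKM and 859 to 1138 counts. The summed FPKM of the 15 liposarcoma, adipocyte and mesenchymal markers was 1604 to 1749 with Apatinib and 1272 to 1392 in the control. By their means, VIM and CD44 made up most of this sum, so it says little of the other markers. Of the 12 tested, 1 was called (8.33%, against 11.5% of all tested genes), LPL (lipoprotein lipase, log2 fold change 0.84, edgeR FDR = 0.0237), a call lost without control replicate 1 or control replicate 2. Of 13 markers of epithelial, leukocyte and endothelial cells, 3 had enough counts to be tested, and the leukocyte markers PTPRC and LYZ had 0 counts throughout. Of the 3 endothelial markers tested, VWF was called higher (log2 fold change 1.52, edgeR FDR = 0.0386), CDH5 lower (-1.22, edgeR FDR = 0.0242), and TEK was not called (0.13), where 11.5% of all tested genes were called. Both calls were lost without Apatinib replicate 1, control replicate 1 or control replicate 2, that of VWF also without Apatinib replicate 3 and that of CDH5 also without control replicate 3. The 13 markers' part in the results was not tested. Their summed FPKM was 9.66 to 14.5 with Apatinib and 4.23 to 6.27 in the control. The difference lay in CD68, with 6.78 to 11.8 FPKM against 1.79 to 3.30, although its counts were 0 or 1 in every library. Without CD68 the sums were 2.67 to 2.89 and 2.44 to 2.97 FPKM.

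ABCC3 was the only one of the 8 transporters to be called, and it was higher with Apatinib. ABCC1 and ABCC10 lay above the control in every library and ABCC5 lay below it, without reaching the FDR limit. ABCB1, ABCC4 and ABCG2 overlapped between the groups, and ABCC2 was almost silent. In numbers, 1 of the 7 tested transporters was called (14.3%), where 11.5% of all tested genes were. The share of all tested genes was 1.65% without control replicate 1, 1.80% without control replicate 2, 4.73% without Apatinib replicate 1 and 1.75% with controls 1 and 2 summed, and 1 transporter was called in each of these fits. With all libraries it was 1 higher, against 5.97% of all tested genes, and 0 lower, against 5.48%. At an unadjusted p under 0.05, edgeR had 3 of the 7, where 30.6% of all tested genes passed, namely ABCC1 and ABCC3 above 0 and ABCC5 below it. DESeq2 also called 1 transporter, higher, and 0 lower. The groups did not overlap in 4 of the 7 (57.1%), where 33.2% of all tested genes did not overlap. The median log2 fold change was 0.02 over the 7 transporters and 0.00 over all genes tested.

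**Figure D1:**
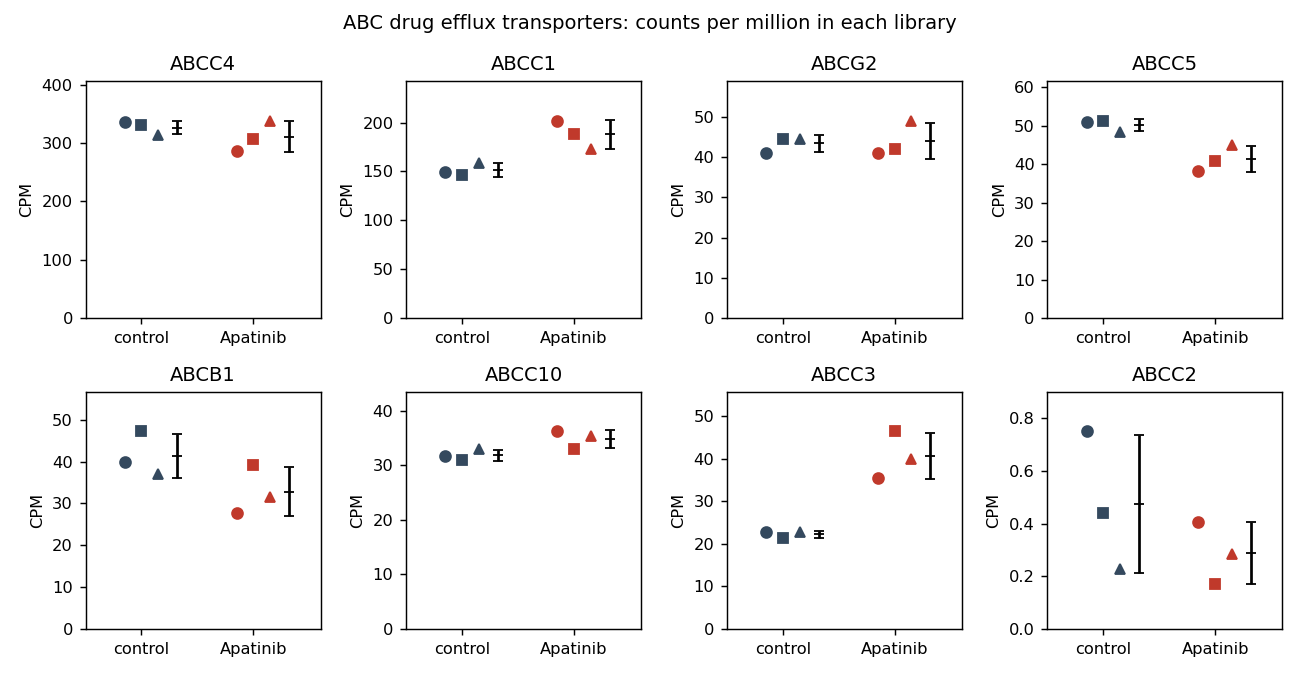
CPM (vertical axis, from 0) of the 8 transporters in the 3 control (dark) and 3 Apatinib (red) libraries, where circles, squares and triangles are replicates 1, 2 and 3 and the bars are the mean ± SD of a group. ABCC3 stood at 35.5 to 46.5 CPM with Apatinib, above all control libraries at 21.3 to 22.8, while ABCC2 stayed under 1 CPM.

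Levels between genes were compared per transcript length, in the FPKM (fragments scaled to transcript length and to the mapped fragments) that the authors deposited. ABCC4 was the most abundant transporter, with a mean of 40.6 FPKM over the 6 libraries and a range of 34.7 to 44.5. ABCC1 followed at 18.5 FPKM, between 15.8 and 21.2. Each of these stood above the next transporter in every library. Below them came ABCG2 at 7.03, ABCC5 at 6.38, ABCB1 at 5.87, ABCC10 at 5.50 and ABCC3 at 5.10 FPKM. Neighbours among these 5 overlapped over the 6 libraries. The higher mean of each neighbouring pair was the higher value in 4 of 6 libraries, so the order of neighbours is not resolved. ABCG2, at 6.32 FPKM or more, stood above ABCC10, at 6.01 or less, in every library. The place of ABCC3 differed by group. In the control it was below all others of the 5, at 3.76 to 3.93 FPKM. With Apatinib its mean of 6.34 was second to ABCG2 at 7.21. ABCC2 was last at 0.0493 FPKM, with no overlap with ABCC3.

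**Figure D2:**
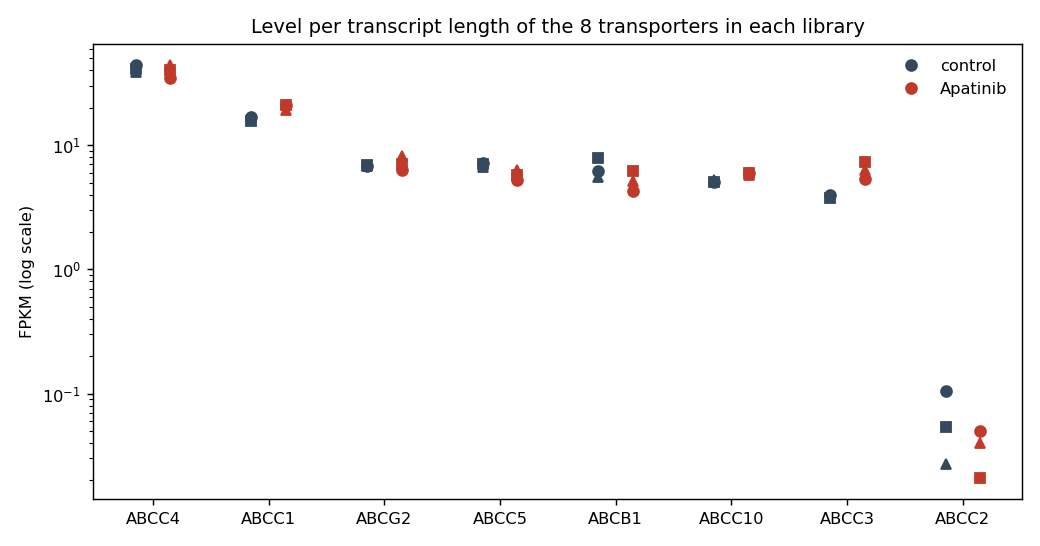
FPKM (vertical axis, log scale) of the 8 transporters, ordered by their mean, in the 3 control (dark) and 3 Apatinib (red) libraries, with circles, squares and triangles for replicates 1, 2 and 3. ABCC4 and ABCC1 stand clear of the 5 transporters between 3.76 and 8.23 FPKM, and ABCC2 lies at 0.104 FPKM or less.

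ABCC3 had the lowest mean of the 7 tested transporters in the control, at 3.85 ± 0.0846 FPKM (SD, n = 3), and reached 6.34 ± 1.02 FPKM (n = 3) with Apatinib. Its share of the summed FPKM of the 8 transporters was 6.40%, 7.79% and 6.67% in the treated libraries and 4.35%, 4.31% and 4.61% in the untreated ones. ABCC4 and ABCC1 together held 65.6% to 67.3% of that sum with Apatinib and 65.0% to 67.6% in the control. The sum itself was 83.1, 94.3 and 95.3 FPKM in the treated libraries and 90.5, 87.4 and 83.4 FPKM in the untreated ones, so the groups overlapped. In RNA from a whole culture, fewer cells that make a transcript and less transcript in each cell cannot be told apart.

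The stretch just before the transcription start is shown for the most abundant transporter, for the one that lay below the control in every library, and for the one that was nearly silent. The sequences are the 250 bases before a start site in RefSeq on GRCh38.p14, whereas the files were made on hg19, so the coordinates belong to RefSeq's build only. RefSeq windows were matched by symbol for 6 of the 8 transporters, without ABCC1 and ABCC3. Capitals mark CpG dinucleotides, the usual sites of DNA methylation, a marking that was chosen after the windows were seen. The windows are ABCC4 at chr13:95301452-95301701 (minus strand), ABCC5 at chr3:184017885-184018134 (minus strand) and ABCC2 at chr10:99782390-99782639 (plus strand), each written 5′ to 3′ on the strand of its gene.
ABCC4: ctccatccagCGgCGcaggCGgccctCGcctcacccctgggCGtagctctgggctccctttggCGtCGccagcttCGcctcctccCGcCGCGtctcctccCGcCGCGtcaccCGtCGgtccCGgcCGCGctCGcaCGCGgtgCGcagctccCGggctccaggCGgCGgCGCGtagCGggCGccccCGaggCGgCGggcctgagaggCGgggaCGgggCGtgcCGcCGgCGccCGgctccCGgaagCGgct
ABCC5: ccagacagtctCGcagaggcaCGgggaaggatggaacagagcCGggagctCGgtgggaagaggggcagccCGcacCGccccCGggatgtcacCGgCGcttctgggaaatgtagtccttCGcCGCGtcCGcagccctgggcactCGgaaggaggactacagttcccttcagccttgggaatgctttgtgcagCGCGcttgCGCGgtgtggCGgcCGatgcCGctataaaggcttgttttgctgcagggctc
ABCC2: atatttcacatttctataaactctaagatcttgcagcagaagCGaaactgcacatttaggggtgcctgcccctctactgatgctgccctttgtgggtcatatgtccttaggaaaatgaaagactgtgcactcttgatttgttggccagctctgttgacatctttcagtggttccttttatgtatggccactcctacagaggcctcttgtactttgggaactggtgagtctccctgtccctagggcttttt

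The ABCC4 window held 42 CpG and 80.4% G or C, and 97.1% of all 35116 RefSeq windows of the same length had a lower share. The ABCC5 window held 21 CpG at 64.8%, above 66.5% of windows. The ABCC2 window held 1 CpG at 45.6%, above 23.2% of windows. Expressed transporters also had such windows among their several start sites, with 1 CpG and 39.2% at one of ABCB1 and 2 CpG and 40% at one of ABCG2. The median window had 11 CpG and 58.0% G or C. On both strands, the GC box GGGCGG was found once in the ABCC5 window and not in the ABCC4 or ABCC2 window, and 42.6% of all windows held it. The core of the antioxidant response element, TGACNNNGC, was found once in the ABCC4 window and in 10.9% of all windows. The CCAAT box, CCAAT, was in none of these windows and in 32% of all windows. These matches describe letters, and no binding or methylation was measured.

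ABCC3 (MRP3, ENSG00000108846) exports glucuronide and other organic anion conjugates, and etoposide and methotrexate are among its drug cargo. Its counts were 610, 823 and 699 in the treated libraries, against 395, 388 and 495 in the untreated ones. On the CPM scale these were 35.5, 46.5 and 40.0 against 22.8, 21.3 and 22.7. Every Apatinib library was above every control library. The group means were 40.7 ± 5.51 and 22.3 ± 0.812 CPM (SD, n = 3), which is 1.83-fold higher with Apatinib. The log2 fold change was 0.87 with a standard error of 0.138 and a 95% interval of 0.57 to 1.17, and edgeR's quasi-likelihood test gave an FDR of 0.00584. Of the tested genes, 0.816% had a smaller p than ABCC3 and 7.24% had a larger log2 fold change in size. ABCC3 was called in all 14 alternative fits, with log2 fold changes between 0.59 and 0.96. The highest FDR was 0.0429, without control replicate 2, and it was 0.0407 with control replicates 1 and 2 summed as 1 sample.

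**Figure D3:**
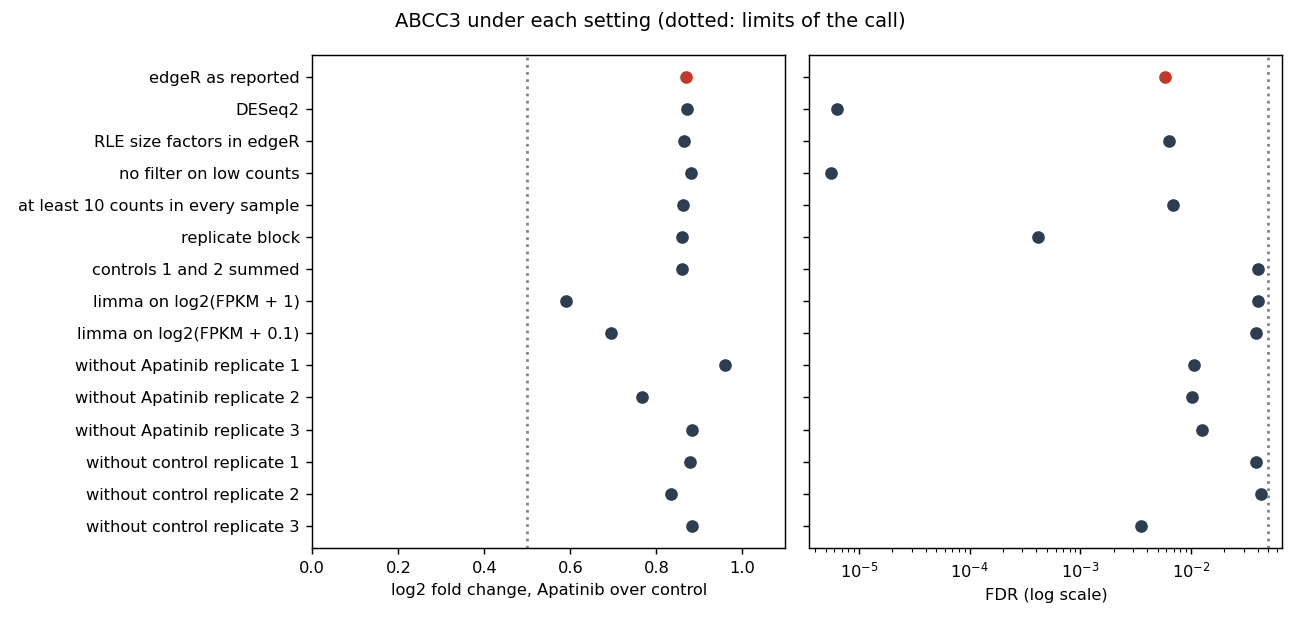
Log2 fold change of ABCC3 (left) and its FDR (right, log scale) under the reported fit (red) and 14 alternatives, with dotted lines at the limits of a call. All points lie above 0.5 on the left and under 0.05 on the right, and the largest FDR is 0.0429.

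The 5 tested genes whose log2 CPM followed that of ABCC3 most closely over the 6 libraries were IDH1 (Pearson r = 0.999), PHKA1 (0.998), TMTC2 (0.998), ME1 (0.995) and PAPLN (0.995). They were picked for this likeness out of all tested genes, and the 6 libraries fall into 2 groups, so the values are a description. TMTC2, a mannosyltransferase of the endoplasmic reticulum, was called higher at 1.61 on the log2 scale (edgeR FDR = 0.00776). PAPLN, the extracellular matrix protein papilin, was called higher at 1.03 (edgeR FDR = 0.00382), and ME1, the cytosolic malic enzyme that makes NADPH, at 0.61 (edgeR FDR = 0.0140). IDH1, the cytosolic isocitrate dehydrogenase, had 0.40 (edgeR FDR = 0.0398), under the limit on the fold change. PHKA1, a subunit of phosphorylase kinase, had 0.36 (edgeR FDR = 0.0699). Exons of PAPLN and IDH1 overlap antisense genes, from whose reads theirs may not have been separated.

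ABCC1 (MRP1, ENSG00000103222) exports glutathione conjugates, leukotriene C4 and anthracyclines. It had 202, 189 and 173 CPM with Apatinib and 149, 146 and 159 CPM in the control. Every Apatinib library was above every control library, by the least between Apatinib replicate 3 and control replicate 3. The log2 fold change was 0.31 with a standard error of 0.116 and a 95% interval of 0.06 to 0.56, and the edgeR FDR was 0.0970. In the 14 alternatives the log2 fold change stayed between 0.26 and 0.37, and ABCC1 was called in 0 of them.

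ABCC10 (MRP7, ENSG00000124574), which exports taxanes and vinca alkaloids, had 36.2, 33.1 and 35.3 CPM with Apatinib and 31.7, 31.0 and 32.9 CPM in the control. The groups did not overlap, but Apatinib replicate 2 was only just above control replicate 3. Its log2 fold change was 0.13 with a 95% interval of -0.13 to 0.39 (edgeR FDR = 0.50). In GENCODE 29 the exons of ABCC10 overlap those of DLK2 on the opposite strand, and whether the counting used strand is not given in the sources used here.

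ABCC5 (MRP5, ENSG00000114770) exports cyclic nucleotides and nucleotide analogues, among them metabolites of 5-fluorouracil. It had 38.2, 41.0 and 44.9 CPM with Apatinib and 50.9, 51.4 and 48.3 CPM in the control. All Apatinib libraries were below all control libraries, with Apatinib replicate 3 the nearest to them. The log2 fold change was -0.28 with a 95% interval of -0.54 to -0.01, and the edgeR FDR was 0.144. It was called in 0 of the 14 alternatives. ABCC5 and ABCC1 ran in opposite order over the 6 libraries (Pearson r of log2 CPM -0.997), which is one of 21 pairs of transporters compared and is given as a description.

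ABCB1 (P-glycoprotein, ENSG00000085563), the classical multidrug pump, had 27.6, 39.1 and 31.5 CPM with Apatinib and 39.8, 47.2 and 36.9 CPM in the control. Apatinib replicate 2 was above control replicate 3 and the groups overlapped. The log2 fold change was -0.33 with a standard error of 0.157 and a 95% interval of -0.68 to 0.01 (edgeR FDR = 0.175). It was between -0.47, without Apatinib replicate 2, and -0.22, without Apatinib replicate 1, when 1 library was left out, and ABCB1 was called in 0 of these 6 fits.

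ABCG2 (BCRP, ENSG00000118777), which exports urate and drugs such as topotecan, had 40.8, 42.1 and 49.0 CPM with Apatinib and 41.0, 44.5 and 44.5 CPM in the control. The groups overlapped, with Apatinib replicate 3 the highest library and Apatinib replicate 1 the lowest. Its log2 fold change was 0.02 with a 95% interval of -0.25 to 0.29 (edgeR FDR = 0.931), and it became -0.06 without Apatinib replicate 3 and -0.02 without control replicate 1.

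ABCC4 (MRP4, ENSG00000125257), which exports cyclic nucleotides, prostaglandins and nucleotide analogues, had 286, 307 and 339 CPM with Apatinib and 335, 331 and 313 CPM in the control. The highest library was Apatinib replicate 3 and the lowest was Apatinib replicate 1. The log2 fold change was -0.07 with a 95% interval of -0.33 to 0.18 (edgeR FDR = 0.719).

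ABCC2 (MRP2, ENSG00000023839), the pump that moves bilirubin glucuronide into bile, had counts of 7, 3 and 5 in the treated libraries and of 13, 8 and 5 in the untreated ones. The groups overlapped, and the gene did not pass the filter on low counts. With no filter edgeR gave a log2 fold change of -0.67 with a 95% interval of -1.96 to 0.63 (edgeR FDR = 0.661), so no difference was detectable at counts this low.

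**Figure D4:**
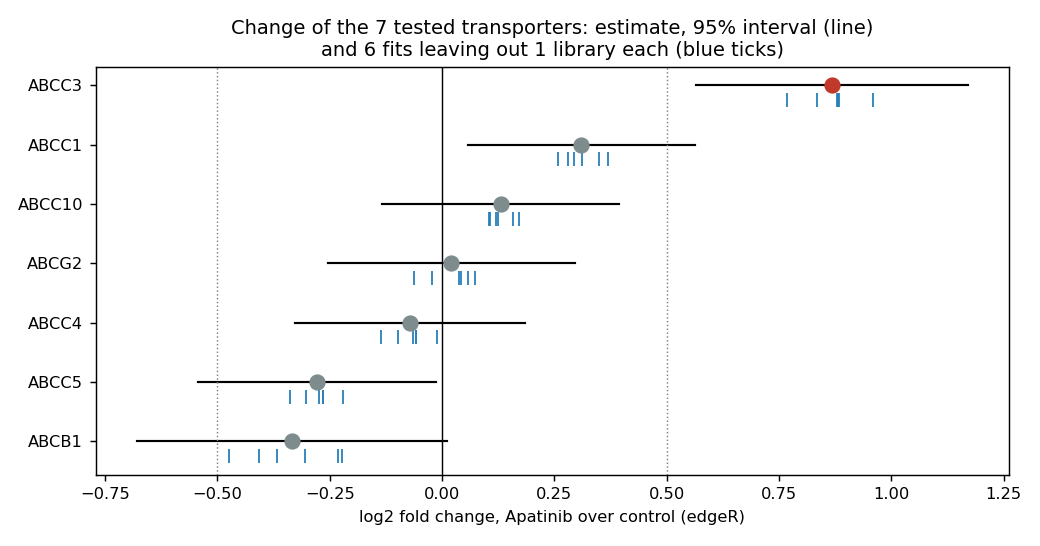
Log2 fold change, Apatinib over control (horizontal axis), of the 7 tested transporters from edgeR, with the 95% interval (line) and the values when each of the 6 libraries was left out in turn (blue ticks). Dotted lines mark 0.5 in either direction, and ABCC3 (red) is the one estimate outside them, at 0.87.

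Other genes of the ABC superfamily were found by symbol for all 40 on a list of the remaining members, and 27 had enough counts to be tested. The symbol TAP2 stands for 2 genes in the matrix, and the one whose identifier carries that name in the reference table was used. Of the 27, 6 were called higher and 1 lower (25.9% called, against 11.5% of all tested genes), with a median log2 fold change of 0.20 beside 0.00 over all genes. ABCG1 and ABCA1, which export cholesterol, rose by 1.89 and 1.51 on the log2 scale (edgeR FDR = 0.00192 and 0.00304). ABCB4, the phosphatidylcholine pump of the bile canaliculus and the nearest relative of ABCB1, rose by 0.82 (edgeR FDR = 0.0101), from 8.69 ± 0.572 to 15.3 ± 1.16 CPM (SD, n = 3). ABCA3, a lipid pump of lamellar bodies, rose by 0.73 (edgeR FDR = 0.0192) and ABCA2, a lipid pump of endolysosomes, by 0.61 (edgeR FDR = 0.0145). ABCA13 fell by 1.58 on the log2 scale (edgeR FDR = 0.0223), from 3.97 ± 1.45 to 1.32 ± 0.596 CPM. The most abundant others, ABCF1, ABCF2 and TAP1, had log2 fold changes of -0.19, -0.07 and 0.40 and were not called. The number called was 2, ABCA1 and ABCG1, without control replicate 1 and also without control replicate 2, and 4 without Apatinib replicate 1. The call of ABCA3 was also lost without Apatinib replicate 1, and that of ABCA13 without Apatinib replicate 1 or Apatinib replicate 2.

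**Figure D5:**
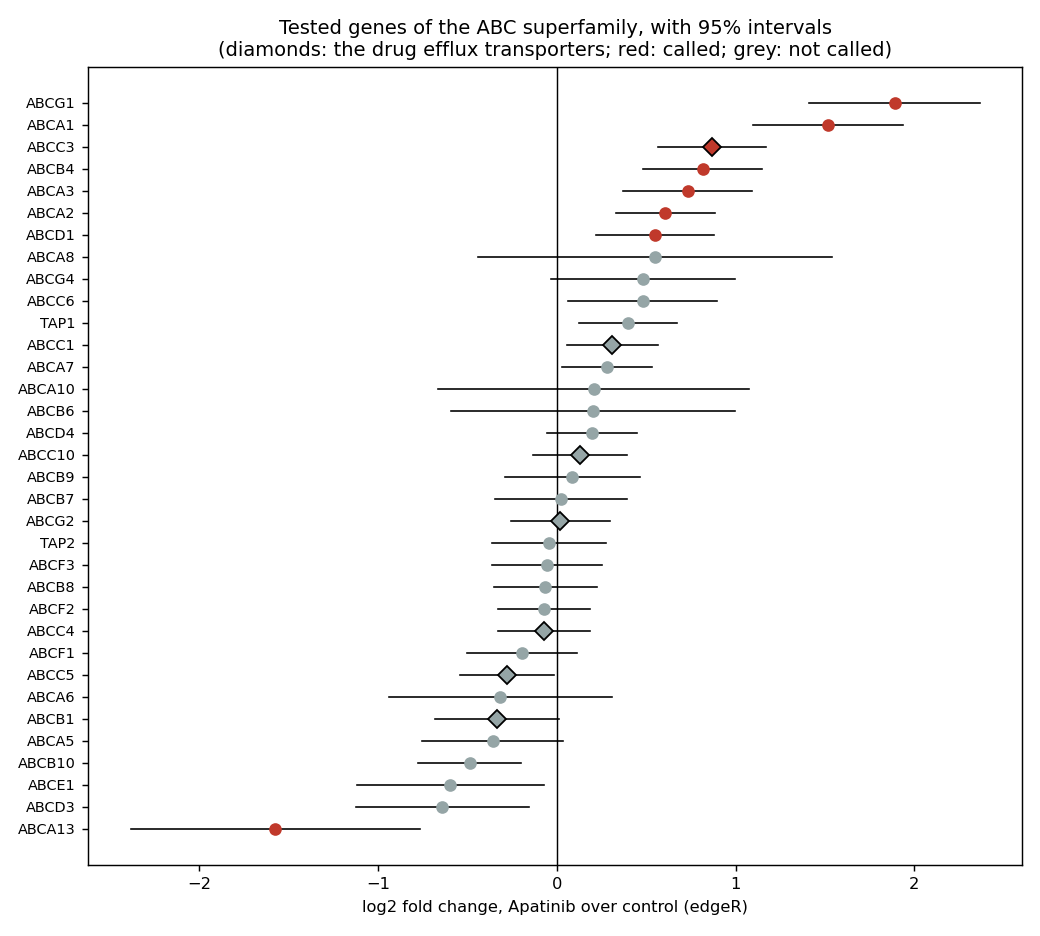
Log2 fold change, Apatinib over control (horizontal axis), with 95% intervals for the 34 tested ABC genes, ordered by value; diamonds are the 7 drug efflux transporters, circles the 27 others, and red marks a call. ABCC3 is the one red diamond, and ABCG1 and ABCA1 at 1.89 and 1.51 stand highest.

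Transcription factors and partners known to act on efflux transporter genes were found for all 39 on a list, and 33 were tested. Of these, 2 were called higher and 1 lower (9.09%, against 11.5% of all tested genes). Their log2 fold changes had a median of 0.16. ATF4, the effector of the integrated stress response, rose by 0.70 on the log2 scale (edgeR FDR = 0.0104), from 258 ± 21.6 to 418 ± 53.4 CPM (SD, n = 3). NR1H3, the oxysterol receptor LXR alpha, rose by 0.69 (edgeR FDR = 0.0119), and its exons overlap those of ACP2 on the opposite strand. SP3, which binds GC boxes, fell by 0.58 on the log2 scale (edgeR FDR = 0.0312), a call also lost without Apatinib replicate 1 or Apatinib replicate 3. YBX1 and HIF1A, the most abundant with ATF4, had log2 fold changes of -0.22 and -0.18 and were not called. Leaving out control replicate 1 or control replicate 2 gave 0 calls.

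Textbook target genes of NRF2 and of the aryl hydrocarbon receptor, 2 factors of the response to foreign compounds, were tested for 17 of 19. Of these, 3 were called higher and 0 lower by edgeR, with 8 of the 17 at an unadjusted p under 0.05 (30.6% of all tested genes), and DESeq2 called 3 higher and 1 lower. Among these 8, GCLC (log2 fold change -0.36) and CYP1A1 were below 0 and the rest above. The edgeR calls are 17.6% of the list, against 11.5% of all tested genes, with a median log2 fold change of 0.17. AKR1B10, an aldo-keto reductase, rose by 0.90 on the log2 scale (edgeR FDR = 0.0112), and ME1 rose as given above. HMOX1, heme oxygenase 1, rose by 0.69 (edgeR FDR = 0.0423), a call also lost without Apatinib replicate 1 or Apatinib replicate 3. NQO1, the quinone reductase and the most abundant of the list at 436 FPKM, had a log2 fold change of 0.12 with a 95% interval of -0.20 to 0.45 (edgeR FDR = 0.623). TXNRD1, a thioredoxin reductase, had 0.43 (edgeR FDR = 0.0294), under the limit on the fold change. CYP1A1, the classical target of the aryl hydrocarbon receptor, which was singled out after its values were seen, had a log2 fold change of -0.65 with all Apatinib libraries below the control (edgeR FDR = 0.0505). AHRR, TIPARP and CYP1B1, listed targets of the same receptor, went the other way, at 0.34, 0.17 and 0.09, and were not called. Leaving out control replicate 1 or control replicate 2 gave 0 calls.

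Glutathione and conjugating enzymes, which make or supply the conjugates that ABCC pumps carry, were tested for 25 of 32. Of these, 2 were called higher and 0 lower by edgeR (8%, against 11.5% of all tested genes), with 13 of the 25 at an unadjusted p under 0.05 (30.6% of all tested genes), and DESeq2 called 1. Among these 13, GCLC (log2 fold change -0.36) and UGP2 (-0.47) were below 0 and the rest above. The median log2 fold change was 0.23. SULT2B1, a sterol sulfotransferase, rose by 1.55 on the log2 scale (edgeR FDR = 0.0478) from a level of 0.348 ± 0.0664 to 1.03 ± 0.484 CPM (SD, n = 3). Its call was kept in 1 of the 6 fits that left out 1 library, the one without Apatinib replicate 3, and in 3 of the 8 other alternatives. SULT1A1, a phenol sulfotransferase, rose by 0.78 (edgeR FDR = 0.0223), a call lost without Apatinib replicate 1, control replicate 1 or control replicate 2, and it shares exons with a pseudogene and has close paralogs, so its counts are uncertain. The glutathione transferases GSTP1, MGST1 and GSTK1, the most abundant of the list, had log2 fold changes of 0.07, 0.33 and 0.33 and were not called. The number called was 0 without control replicate 1, without control replicate 2 or without Apatinib replicate 1, and it was 4 without Apatinib replicate 3.

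Transcripts of 3 kinases named as targets of Apatinib were too few to test, and protein was not measured. KDR, which encodes VEGFR2, had counts of 4, 11 and 6 in the treated libraries and of 9, 8 and 4 in the untreated ones. KIT had 0 counts in all libraries but control replicate 1, which had 1, and RET had 0 to 7. SRC was tested and had a log2 fold change of 0.30 with a 95% interval of -0.01 to 0.60 (edgeR FDR = 0.179).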

How the data were processed

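RNA of 3 Apatinib and 3 control replicates of SW872 was sequenced on an Illumina platform. The authors deposited counts of 57773 genes as whole numbers that were not normalized. They also deposited FPKM values, scaled by the authors to transcript length and mapped fragments, for each replicate, and 1 further column of such values, headed with a control's label inside the values of Apatinib replicate 1, was not used. The submitters' processing notes name CASAVA, STAR 2.7.1a and hg19, and the counting program and its use of strand are not given in the sources used here. The study's own test was DESeq2.

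The counts were tested in R 4.3.3 with edgeR 4.0.16 (filterByExpr, TMM, quasi-likelihood F test, Benjamini-Hochberg adjustment over 16290 genes), with groups taken from the labels and no block. Log2 CPM used a prior count of 2. FPKM served for levels between genes and as the unit of an alternative. The edgeR, DESeq2 and limma steps were first tested on simulated data. The 8 transporters, the gene lists, the tests and the rule for naming genes were chosen with earlier results of these data known. The rule named the 8 transporters, up to 6 called genes of each list by smallest FDR with the 3 highest in mean FPKM, KDR, KIT, RET and SRC, and the 5 genes nearest to a called transporter in pattern, and 1 gene it named is not reported here. Alternatives were DESeq2 1.42.0, RLE size factors, no filter beyond a total of 1 count, at least 10 counts in every sample, a replicate block, controls 1 and 2 summed, limma 3.58.1 with a pseudocount of 1 or of 0.1 on log2 FPKM (mean FPKM over 0.5), the FDR limit alone, and each library left out. Libraries held 17043314 to 22067558 counts. Where replicates were not separate cultures, p-values measure only the spread between these samples. Gene annotation was GENCODE 29, and promoter windows came from RefSeq (GRCh38.p14).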

Additional observations from a re-analysis of the deposited data

How the results depend on the processing

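The direction of 6 transporters was the same in the 14 alternatives, and the number of transporters called was 1 in each, also when 1 library was left out (1 to 1). When 1 library was left out, the log2 fold change of ABCC3 was 0.77 to 0.96, of ABCC1 0.26 to 0.37, of ABCC10 0.10 to 0.17, of ABCG2 -0.062 to 0.074, of ABCC4 -0.14 to -0.01, of ABCC5 -0.34 to -0.22 and of ABCB1 -0.47 to -0.22. ABCG2 changed sign, to -0.062 without Apatinib replicate 3 and -0.023 without control replicate 1, and the cause was not tested.

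Replicate numbers did not pair the samples (correlations of deviations -0.259, 0.0808 and -0.220). With the replicate block, 2215 genes were called, 5 of them regulators, and ABCC3 had a log2 fold change of 0.86, and no call of a transporter changed.

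The counts of called genes moved more. Over all tested genes the number was 1866, and it was 292 with controls 1 and 2 summed, 796 with limma on log2(FPKM + 1) and 810 on log2(FPKM + 0.1). Leaving out 1 library gave 275 (without control replicate 1) to 2594, with 300 without control replicate 2 and 795 without Apatinib replicate 1. With controls 1 and 2 summed, the other ABC genes had 2 calls, the regulators 0, the NRF2 and AHR targets 0, the conjugating enzymes 0, the solute carriers 1 and the anchors 0. Under both limma fits the other ABC genes had 3, the conjugating enzymes 0 and the anchors 1. The conjugating enzymes had 1 call with DESeq2 and 1 with at least 10 counts. The regulators had 7 with no filter. The anchors had 1 with RLE factors, 1 with at least 10 counts and 5 with the FDR limit alone. With 1 library left out, the range was 2 to 10 for other ABC genes, 0 to 4 for regulators, 0 to 3 for NRF2 and AHR targets, 0 to 4 for conjugating enzymes, 1 to 4 for solute carriers and 0 to 4 for anchors. The Apatinib target list had 0 calls throughout (0 to 0), with 1 gene tested. The cause of these moves was not tested. ABCC2, KDR, KIT and RET had counts too low to test in the reported fit.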

Other observations

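Solute carriers of drug uptake and proton-driven drug efflux were tested for 15 of 35, of which 2 were called higher and 1 lower (20%, against 11.5% of all tested genes), with a median log2 fold change of 0.30. SLC22A18, a transporter of organic cations, rose by 0.83 on the log2 scale (edgeR FDR = 0.00640), from 25.9 ± 1.39 to 46.0 ± 5.60 CPM (SD, n = 3), and it overlaps SLC22A18AS on the opposite strand. SLCO3A1, an organic anion transporter, rose by 0.56 (edgeR FDR = 0.0313), a call lost without Apatinib replicate 1, control replicate 1 or control replicate 2. SLCO4A1, a carrier of thyroid hormone, fell by 0.64 on the log2 scale (edgeR FDR = 0.0240), and both overlap an antisense gene. SLC29A1, the nucleoside carrier ENT1, and SLC31A1, the copper carrier that also takes up platinum drugs, had log2 fold changes of -0.13 and 0.30 and were not called. SLC22A18 was called in each of the 6 fits that left out 1 library, and it was the 1 carrier called without control replicate 1 or without control replicate 2.

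Membrane anchors and other proteins associated with efflux were tested for 20 of 21, of which 1 was called higher and 1 lower (10%, against 11.5% of all tested genes). Their log2 fold changes had a median of 0.11. RDX, radixin, which tethers ABCC2 and other pumps to actin, fell by 0.55 on the log2 scale (edgeR FDR = 0.0330), from 580 ± 81.4 to 397 ± 49.0 CPM (SD, n = 3). CAV2, a caveolin, rose by 0.60 (edgeR FDR = 0.0498), and it overlaps an antisense gene. Its call was kept in 1 of the 6 fits that left out 1 library, the one without Apatinib replicate 1, and in 3 of the 8 other alternatives. RDX was kept in 3 of the 6, and was lost without Apatinib replicate 1, control replicate 1 or control replicate 2. MSN (moesin), CAV1 and CAVIN1 were the most abundant, with log2 fold changes of -0.14, 0.11 and 0.22, and were not called. Leaving out control replicate 1 or control replicate 2 gave 0 calls, and the number was 1 without Apatinib replicate 1 and 4 without control replicate 3.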
